A study of Mus musculus with 6 samples.

Results

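The neurotrophin and GDNF signalling family was followed in cells of the Atoh1 lineage through 9 genes: the ligands Bdnf, Ntf3 and Gdnf and the receptors Ntrk2, Ntrk3, Ngfr, Gfra1, Gfra2 and Ret. All probe sets that the platform annotation gave to exactly 1 of these symbols were taken, which were 32 of 45101 probe sets on the array and covered 8 of the 9 genes. Ntf3 was not analysed here. The late cells were labelled by tamoxifen at E13.5 and the early cells at E10.5, and both were sorted as EGFP-positive cells from the rhombomere 1 and isthmus region of E14.5 Swiss Webster embryos. All embryos carried Atoh1-CreER and the RCE EGFP reporter, and all dams received tamoxifen orally at 4 mg per 35 g, so the groups differed in the day of dosing and hence also in the time between dosing and collection. The inducible Cre recombinase depends on the Atoh1 promoter, so a cell counted as early or late only if that promoter was active around the dose, in the cell or in an ancestor of it. Each group held 3 Affymetrix mouse expression arrays. The labels do not say whether these came from separate litters or pools, so the p-values reflect the spread among these 6 arrays alone, part of which may be technical. The number of arrays limits the precision.

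Neurotrophins are secreted proteins that bind Trk receptor tyrosine kinases and the p75 receptor and are known for their roles in the survival, differentiation and wiring of neurons. Bdnf acts mainly through TrkB (Ntrk2) and neurotrophin 3 mainly through TrkC (Ntrk3), and both pathways are active in developing cerebellar granule cells. GDNF family ligands bind a GFR-alpha co-receptor anchored to the cell surface, which then engages the Ret kinase or the adhesion molecule Ncam1.

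Across the series, median signals were 97.5 to 111.5 units per array, and the rank correlation (Spearman) of 2 arrays of a group was 0.938 to 0.945 in late and 0.874 to 0.893 in early cells. Between a late and an early array it was 0.845 to 0.886, which overlapped the range within the early group. Of the 10 markers of the Atoh1 lineage in rhombomere 1, 8 lay above the array median on all 3 late and 8 on all 3 early arrays. Barhl2 lay at or below the median on all 6. Of the 9 tested, Atoh1, Pax6, Barhl1 and En2 were higher in late cells (limma, adjusted p below 0.05). Lhx9, Lhx2 and Slc17a6 were higher in early cells, so the groups were not alike in these markers. Among all tested genes the shares were 13.9% and 16.2%. Atoh1 averaged 8642 ± 1588 units in late and 690.1 ± 273 units in early cells (SD, n = 3 each), a difference that the labelling itself can set. The 3′ to 5′ signal ratio of the Actb control probe sets, a sign of RNA quality, was 16.1, 15.0 and 12.9 on the late and 17.4, 19.4 and 26.3 on the early arrays. Late replicate 3 stood apart by a signal of the Y-linked gene Eif2s3y of 14.1 units, against 826 and 942 on the other late arrays. Early replicate 3 stood apart by a signal of Xist, the RNA of the inactive X chromosome, of 166 units, against 10540.0 and 8141 on the other early arrays, and by a signal of the embryonic globin Hbb-y of 4657 units, far above the other early arrays. Results that rest on these arrays are also given without them.

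The ligand Gdnf and the receptors Gfra1, Gfra2 and Ntrk3 differed in opposite directions between the groups. Gdnf was higher in late cells, and 1 Gfra1, 2 Gfra2 and 4 Ntrk3 probe sets were higher in early cells. The Ntrk2 probe sets did not move together, as 1 was higher in late and 3 were higher in early cells. Of the 32 probe sets, 17 lay above the array median on at least 3 arrays and were tested, and 12 of these passed (limma, adjusted p below 0.05), 2 higher in late and 10 higher in early cells. Over all 23491 tested probe sets, 25.9% passed, 12.5% higher in late and 13.4% higher in early cells. The groups did not overlap for 14 of the 17 probe sets, 3 with late above and 11 with early above, against 46.9% of all tested probe sets, 24.8% with late above and 22.1% with early above. The median difference was -1.03 on the log2 scale over the 17 probe sets and 0.09 over all tested ones. Ntrk2 gave 6 and Ntrk3 gave 4 of the 17, so the counts weigh these genes more. By brightest probe set, 7 genes were tested, with 1 higher in late and 3 in early cells. Of all tested genes, 13.9% and 16.2% were. The single Gdnf probe set and the Ntrk3 probe set 1425071_s_at entered the test through 1 group only, which had to make them differ. The Ntrk3 probe sets 1455917_at and 1447723_at lay above the median on 3 early arrays and 1 late array, so their early signals alone sufficed. These counts therefore describe the family and support nothing about it. The other 15 probe sets were too dim, and 12 of them lay at or below the median on all 6 arrays.

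**Figure D1:**
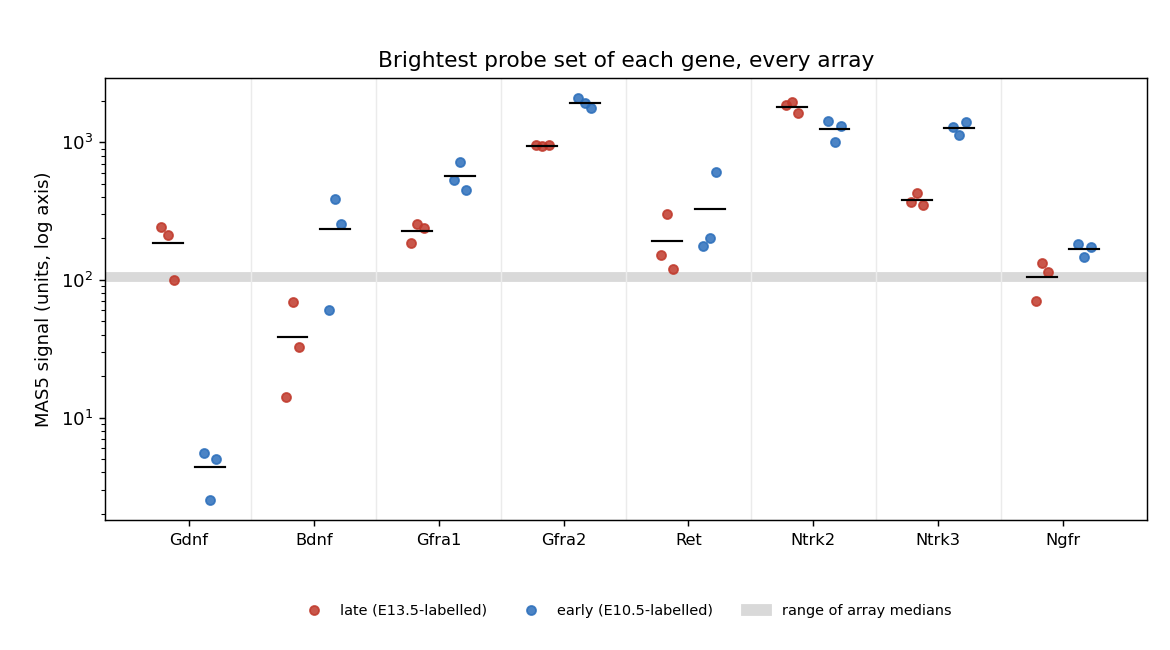
Signal of the brightest probe set of each gene on every array, on a log axis in MAS5 units, with late (E13.5-labelled) arrays left and early (E10.5-labelled) arrays right; bars are group means and the grey band spans the array medians, 97.5 to 111.5 units. Gdnf lay at 100.2 to 244 units on late and at 2.52 to 5.52 units on early arrays, whereas Gfra1, Gfra2 and Ntrk3 lay higher on all 3 early arrays.

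Promoter sequences are shown for Gdnf and Gfra1, the ligand and its preferred co-receptor, because they differed between the groups in opposite directions. RefSeq promoters (GRCm38.p6, 250 bases before to 50 after a gene's start) were at hand for 6 of the 9 genes, with none for Ntrk3, Gfra2 and Ret. Capitals mark every match to CANNTG, the E-box core that basic helix-loop-helix factors such as Atoh1 bind, which reads the same on both strands. Which start was in use in these cells was not measured. The Gdnf windows lie at chr15:7809798-7810097 and chr15:7813477-7813776 on the plus strand and the Gfra1 window at chr19:58455349-58455648 on the minus strand.
Gdnf, first start: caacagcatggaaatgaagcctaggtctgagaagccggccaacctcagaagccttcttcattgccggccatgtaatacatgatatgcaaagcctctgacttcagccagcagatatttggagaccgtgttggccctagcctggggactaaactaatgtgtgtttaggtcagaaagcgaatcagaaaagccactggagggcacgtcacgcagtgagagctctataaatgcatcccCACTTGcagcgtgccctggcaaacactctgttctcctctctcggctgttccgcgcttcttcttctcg
Gdnf, second start: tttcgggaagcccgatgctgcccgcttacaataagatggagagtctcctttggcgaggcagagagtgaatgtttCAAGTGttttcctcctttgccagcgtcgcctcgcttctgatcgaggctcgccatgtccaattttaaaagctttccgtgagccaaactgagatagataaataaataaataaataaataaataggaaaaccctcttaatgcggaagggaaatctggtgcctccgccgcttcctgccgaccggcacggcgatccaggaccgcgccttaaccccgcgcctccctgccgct
Gfra1: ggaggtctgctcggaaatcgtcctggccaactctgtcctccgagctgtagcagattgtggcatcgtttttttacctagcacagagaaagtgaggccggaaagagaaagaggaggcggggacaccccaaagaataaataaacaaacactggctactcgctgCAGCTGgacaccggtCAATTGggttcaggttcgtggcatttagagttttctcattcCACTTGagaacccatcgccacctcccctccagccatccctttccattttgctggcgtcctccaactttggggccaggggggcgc
Each Gdnf window held 1 match and the Gfra1 window held 3, of which 1 was the palindrome CAGCTG, itself a form of CANNTG. Among 32851 promoters of the same length, 72.3% held CANNTG at least once and 16.3% held CAGCTG. A match describes these letters and is no evidence of binding.

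Gdnf, the founding ligand of its family, is a survival factor for motor, sensory and dopaminergic neurons. Its probe set 1419080_at had 244, 211 and 100.2 units on the late arrays, against 5.52, 2.52 and 5.04 units on the early arrays. All 3 late arrays lay far above all 3 early arrays, and the early signals sat between the percentiles 3.46 and 9.67 of their arrays. The means were 185 ± 75.2 units in late and 4.36 ± 1.61 units in early cells (SD, n = 3 each), a fitted difference of 5.39 ± 0.45 log2 units (SE; limma adjusted p = 0.00155). The probe set entered the test through its late signals alone, so the filter favoured a difference and the p adds no support to it. The early signals lay too low for a stable fold. It was 17.5-fold with 5.97 units added to every signal, and 1.61-fold with signals raised to the array median, where the call was lost (limma adjusted p = 0.158). Late replicate 3, at 100.2 units, lay barely above its array's median of 99.8 units. In these sorted populations fewer cells of a type and less RNA per cell cannot be told apart.

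Bdnf, the main TrkB ligand, was too dim to be tested. The probe set 1422169_a_at had 14.1, 69.0 and 32.8 units in late cells, against 60.0, 388 and 256 units in early cells. The groups overlapped through early replicate 1 and late replicate 2 (exact permutation test over the 6 arrays, two-sided p = 0.2). The probe set 1422168_a_at had 23.7, 2.27 and 3.01 units in late cells, against 51.0, 44.3 and 51.2 units in early cells. These groups did not overlap (exact permutation test, two-sided p = 0.1, the smallest p that 3 arrays against 3 allow), but all 6 signals lay at or below the array median.

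Gfra1, the co-receptor that binds Gdnf with preference, was higher in early cells. Its probe set 1439015_at had 187, 255 and 239 units in late cells, against 529, 719 and 449.6 units in early cells. The lowest early array lay above the highest late array. The difference was -1.30 ± 0.25 log2 units (SE), which is 2.47-fold higher in early cells (limma adjusted p = 0.0134). It no longer passed with late replicate 1 left out (limma adjusted p = 0.0556), without late replicate 3 (0.0517) and without any filter on dim probe sets (0.0644), all with the same direction. The probe sets 1421973_at and 1450440_at were not tested. The first of them had its highest signal, 181 units, on early replicate 3.

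Gfra2, the co-receptor preferred by neurturin, was also higher in early cells. The probe set 1433716_x_at had 948, 932 and 950.2 units in late cells, against 2092, 1924 and 1774 units in early cells. The probe set 1459847_x_at had 317, 321 and 307 units in late cells, against 609, 573 and 731 units in early cells. In both, every early array lay well above the narrow range of the late arrays, and the fold changes were near each other. The differences were -1.03 ± 0.17 and -1.01 ± 0.18 log2 units (SE), which are 2.04-fold and 2.01-fold higher in early cells (limma adjusted p = 0.00771 and 0.0105). Probe sets of the _x_at type can hold probes that also match other transcripts, and no accession stands beside these 2 in the annotation. The remaining tested probe set, 1425579_at, had 153, 253 and 109 units in late cells, against 209, 214 and 177 units in early cells. These groups overlapped, and the probe set did not pass (difference -0.30 ± 0.33 (SE), limma adjusted p = 0.535). Without a filter on dim probe sets neither 1433716_x_at (limma adjusted p = 0.0573) nor 1459847_x_at (0.0667) passed. With late replicate 3 left out, 1459847_x_at did not pass (limma adjusted p = 0.0538), and averaging all 5 Gfra2 probe sets gave -0.77 (limma adjusted p = 0.0974).

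Ret, the receptor tyrosine kinase through which GDNF ligands signal, showed no difference beyond the spread. The probe set 1436359_at had 153, 302 and 119.7 units in late cells, against 177, 200.5 and 603 units in early cells. The groups overlapped, and only early replicate 3 lay above the late range. The difference was -0.65 ± 0.57 log2 units (SE), limma adjusted p = 0.441. Without early replicate 3 and late replicate 3 it was 0.19 (limma adjusted p = 0.791), so its sign rested on these arrays. The probe set 1421359_at, not tested, ran from 36.0 to 77.6 units in late and from 4.84 to 94.8 units in early cells.

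Ntrk3, the receptor of neurotrophin 3, was higher in early cells at 4 tested probe sets. Only 1433825_at lay above the median on all late and all early arrays. For 1455917_at, 1447723_at and 1425071_s_at the early signals alone sufficed to enter the test, so the filter favoured a difference. No late array of 1425071_s_at lay above the median. The brightest, 1433825_at, had 369.7, 428 and 352 units in late cells, against 1282, 1123 and 1409.7 units in early cells. The groups lay far apart, with a difference of -1.73 ± 0.19 log2 units (SE), which is 3.32-fold higher in early cells (limma adjusted p = 0.00245). The probe set 1455917_at had 53.0, 168 and 80.3 units in late cells, against 473, 589.8 and 821 units in early cells. The probe set 1447723_at had 51.3, 141 and 64.5 units in late cells, against 827, 714 and 587 units in early cells. In each of these, every early array exceeded every late array, and only late replicate 2 lay above its array's median in the late group. Their differences were -2.77 ± 0.46 and -3.18 ± 0.40 log2 units (SE), which are 6.84-fold and 9.05-fold higher in early cells (limma adjusted p = 0.00843 and 0.00378). With signals raised to the array median the folds were 5.20 and 6.31. The fourth, 1425071_s_at, had 35.6, 63.6 and 60.3 units in late cells, against 128, 109 and 209 units in early cells, 2.77-fold higher in early cells (limma adjusted p = 0.0271). With signals raised to the array median it was 1.39-fold higher and no longer passed (limma adjusted p = 0.221), nor did it without a filter on dim probe sets (0.0947). Its call was lost when late replicate 1 (limma adjusted p = 0.0815), 2 (0.0581) or 3 (0.071) was left out, and likewise for early replicate 1 (0.0505) or 3 (0.0517). The other 4 Ntrk3 probe sets were not tested, and their signals overlapped between the groups.

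Ngfr, the p75 receptor that binds all neurotrophins and their precursors, was measured close to the array medians. The probe set 1454903_at had 70.5, 133 and 114 units in late cells, against 183, 146 and 172 units in early cells. All early arrays lay above all late arrays, but the gap was small. The difference of -0.70 ± 0.28 log2 units (SE) did not pass (limma adjusted p = 0.117). The probe sets 1421241_at and 1450177_at stayed at or under 9.30 units in late and 6.25 units in early cells.

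Ntrk2, the Bdnf receptor TrkB, gave calls in both directions. The gene is known to be transcribed into a full-length kinase form and truncated forms without the kinase, and the annotation used here does not say which form each probe set reads. The probe set 1458622_at had 506, 601 and 526 units in late cells, against 2504, 1720.4 and 2048 units in early cells. The probe set 1437560_at had 84.3, 188 and 112 units in late cells, against 328, 343 and 297 units in early cells. It lay above the median on 3 early and 2 late arrays, so its early signals alone sufficed to enter the test. The probe set 1435305_at had 559.6, 613 and 473 units in late cells, against 2361, 809 and 2630.2 units in early cells. In all 3 the early arrays lay above the late arrays, with early replicate 2 of 1435305_at nearest to them. The folds were 3.81, 2.66 and 3.14 in favour of early cells (limma adjusted p = 0.00247, 0.0232 and 0.0468).

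The probe set 1435196_at went the other way, with 301, 455 and 304 units in late cells, against 207, 144 and 109 units in early cells. It lay above the median on 3 late and 2 early arrays, so its late signals alone sufficed to enter the test. Its lowest late array lay above its highest early array, and the difference was 1.23 ± 0.31 log2 units (SE), which is 2.34-fold higher in late cells (limma adjusted p = 0.0322). The brightest Ntrk2 probe set, 1420838_at, had 1852, 1946 and 1616 units in late cells, against 1420.3, 1008 and 1312 units in early cells. Its groups did not overlap either, yet the difference of 0.54 ± 0.21 (SE) did not pass (limma adjusted p = 0.103). The probe set 1446712_at had 501, 403 and 501 units in late cells, against 462, 462 and 157 units in early cells, and did not pass (limma adjusted p = 0.425). Its groups overlapped, and early replicate 3 was the low array.

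Ratios of Ntrk2 probe sets within an array, where scaling cancels, describe the same signals in another form. Differences in RNA quality between arrays need not cancel in such ratios. The 3′ to 5′ ratio of Actb was higher on every early than on every late array, whereas that of Gapdh overlapped between the groups. The part of RNA quality in the Ntrk2 signals was not tested. The probe set 1435196_at was chosen as numerator because it was the one higher in late cells, so the ratios are given with no test. Its log2 ratio to 1458622_at was -0.75, -0.40 and -0.79 on the late arrays, against -3.60, -3.58 and -4.23 on the early arrays. The means were -0.65 ± 0.21 in late and -3.80 ± 0.37 in early cells (SD, n = 3 each), 3.15 apart. The ratio differed by 2.64 against 1437560_at, by 2.88 against 1435305_at, by 0.68 against 1420838_at and by 0.69 against 1446712_at, and only for the last of these did the groups overlap. Probe sets passing in opposite directions were found in 42 of the 5026 genes that had at least 2 tested probe sets (0.836%). Ntrk2 had 6 tested probe sets, which leaves more room for opposite calls, so this share is no measure of how rare its pattern is. The call of 1458622_at held without any 1 array, whereas those of the other 3 did not. Without a filter on dim probe sets those 3 were lost as well (limma adjusted p = 0.111 for 1435196_at, 0.0865 for 1437560_at and 0.133 for 1435305_at). The call of 1435196_at was lost when late replicate 1 (limma adjusted p = 0.0768), 2 (0.104) or 3 (0.0827) was left out, and likewise for early replicate 2 (0.0639) or 3 (0.0651). That of 1437560_at was lost when late replicate 1 (limma adjusted p = 0.0665) or 3 (0.087) was left out, and likewise for early replicate 1 (0.053) or 2 (0.0508). That of 1435305_at was lost when late replicate 1 (limma adjusted p = 0.124), 2 (0.11) or 3 (0.143) was left out, and likewise for early replicate 1 (0.109) or 3 (0.103).

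**Figure D2:**
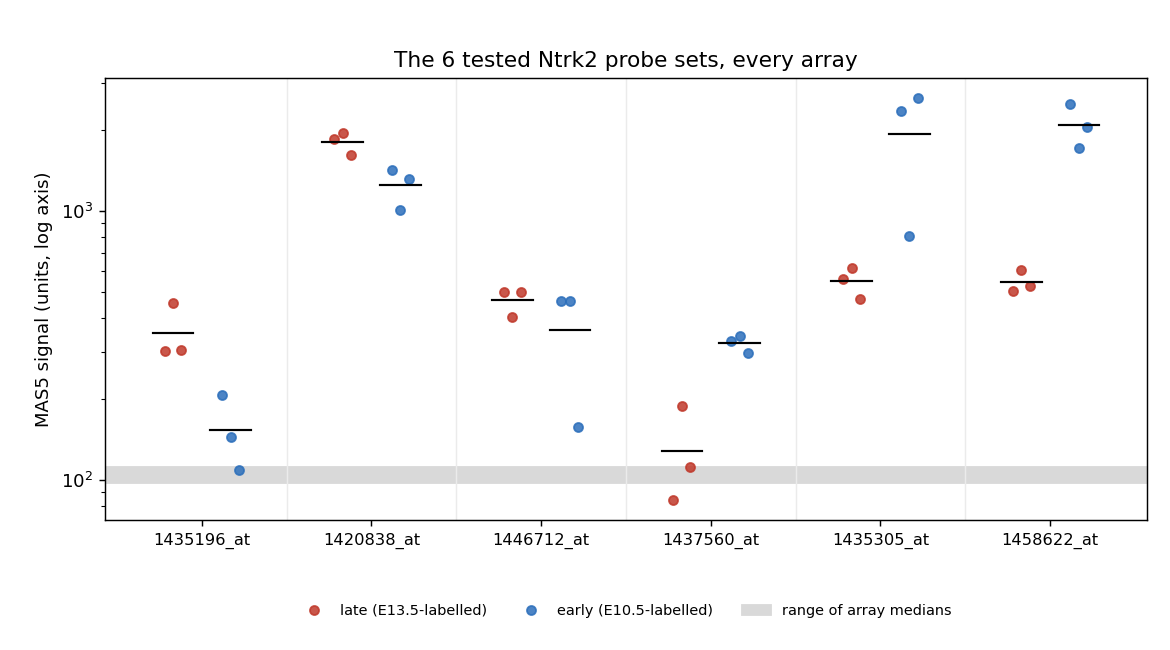
Signals of the 6 tested Ntrk2 probe sets on every array, on a log axis in MAS5 units, with late arrays left and early arrays right; bars are group means and the grey band spans the array medians. The probe set 1435196_at lay at 301 to 455 units on late and 109 to 207 units on early arrays, whereas 1458622_at lay at 506 to 601 units on late and 1720.4 to 2504 units on early arrays.

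**Figure D3:**
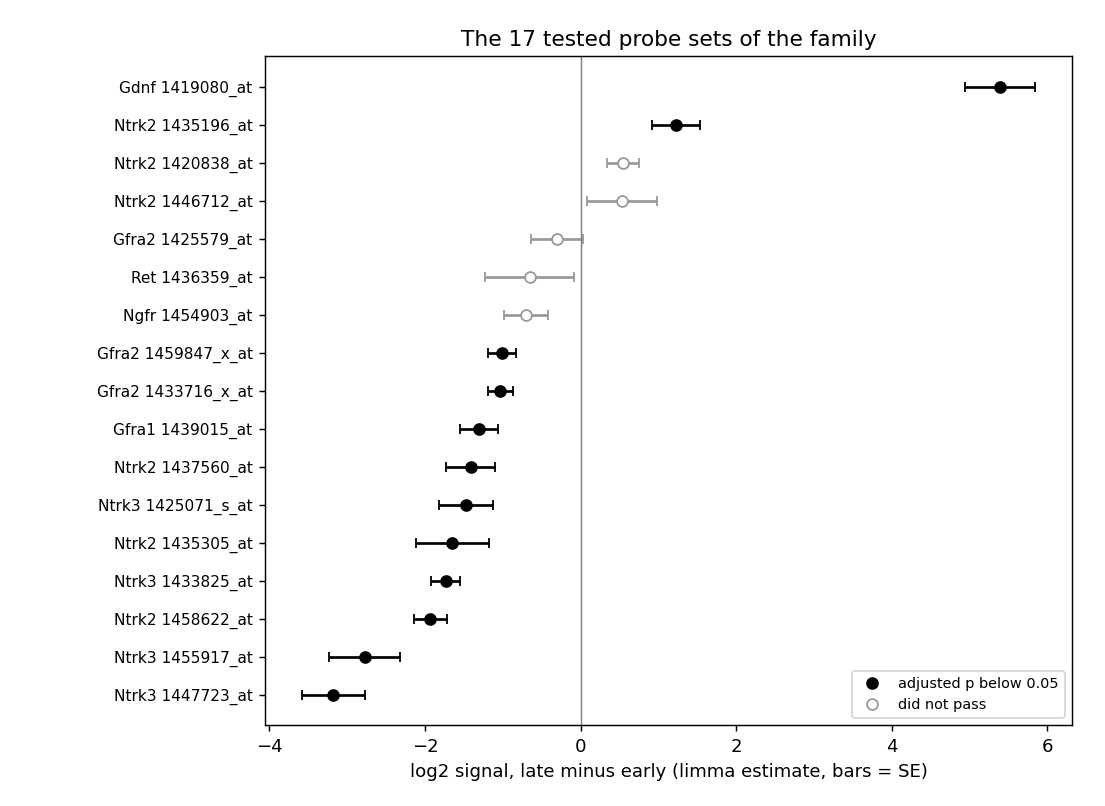
Log2 difference in signal, late minus early, of the 17 tested probe sets with limma's standard error; filled points passed an adjusted p of 0.05 and open points did not. The differences run from -3.18 for an Ntrk3 probe set to 5.39 for Gdnf, and those of Ntrk2 lie on both sides of 0.

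With the 2 arrays numbered replicate 3 left out together, which removed the arrays that stood apart, the calls of Ntrk3 1433825_at (limma adjusted p = 0.0483) and Ntrk2 1458622_at (0.0489) held. The Gdnf call held too, but its probe set entered the test through its late signals alone. The calls of Gfra1 1439015_at (limma adjusted p = 0.0707), Gfra2 1433716_x_at (0.0734), Ntrk3 1447723_at (0.0532) and Ntrk3 1455917_at (0.093) did not hold, with directions as before.

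For each family gene whose brightest probe set passed, the nearest genes were taken by the root mean square distance between log2 profiles over the 6 arrays, each centred on its own mean. Nearest to Gdnf were Car14, a membrane carbonic anhydrase, at 0.567, and Stk17b, a kinase, at 0.659. Nearest to Ntrk3 were Clip1, a protein of growing microtubule ends, at 0.0625, and Dpysl3, a growth cone protein, at 0.0809. Nearest to Gfra1 were Tmcc1 at 0.0943 and St8sia2, a polysialyltransferase that modifies Ncam1, at 0.101. Nearest to Gfra2 were Tubb2b, a neuronal beta-tubulin, at 0.058, and Rab7, a GTPase of late endosomes, at 0.06. These distances are descriptions, and the smallest of them were found for genes with moderate differences.

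Beyond the 9 genes, 4 membrane proteins linked to these pathways were higher in early cells. Counted in either direction, their share of the tested genes was close to the 30.1% over all genes. Of all genes, however, only 16.2% were higher in early cells. The only other ligand tested, Nrtn, did not pass (difference -0.09 log2 units, limma adjusted p = 0.895). Of 20 listed genes, 17 had a probe set and 13 were tested, with 4 higher in early cells and none in late cells (limma; at an unadjusted p below 0.05 also 4 and 0). The list's median was -0.47 on the log2 scale, against 0.03 over all 11071 tested genes, of which 30.1% passed, 13.9% higher in late and 16.2% higher in early cells. Ncam1, the adhesion molecule that can serve Gdnf in place of Ret, had 2858, 5467 and 4135 units in late cells, against 19697, 17626 and 20853 units in early cells. The early arrays lay far above the late ones, 4.82-fold on average (limma adjusted p = 0.00322). Lrig2, a leucine-rich repeat membrane protein, was 2.89-fold higher in early cells (limma adjusted p = 0.00439), Sorcs3, a sortilin-related receptor, 2.74-fold (0.0106) and Rtn4r, the Nogo receptor that works together with p75, 1.87-fold (0.0338). The call of Rtn4r was lost when late replicate 1 (limma adjusted p = 0.116), 2 (0.0515) or 3 (0.12) was left out, and likewise for early replicate 2 (0.0645) or 3 (0.0637), and that of Sorcs3 without late replicate 3 (0.0501). Without a filter on dim probe sets neither Rtn4r (limma adjusted p = 0.13) nor Sorcs3 (0.0531) passed. Sorcs3 lay above the median on 3 early and 2 late arrays, so its early signals alone sufficed to enter the test. Without both replicate 3 arrays, Ncam1 (limma adjusted p = 0.0549) and Lrig2 (0.0532) did not pass. The ligands Ntf5, Artn and Pspn lay at or below the array median on all 6 arrays.

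Receptor adaptors and signal transducers were called in both directions. Of 30 tested genes, 3 were higher in late and 7 in early cells, with a list median of -0.10 on the log2 scale, beside the 13.9% and 16.2% of all tested genes. The largest differences were in Rit2, a neuronal Ras-like GTPase, with 84.0, 89.5 and 74.9 units in late cells, against 1238, 1809 and 1265 units in early cells. Every late array lay below its median for this gene, and it entered the test through its early signals alone, so the filter favoured a difference (17.1-fold higher in early cells, limma adjusted p = 0.00113). With signals raised to the array median it was 13.8-fold higher in early cells. Pik3r1, a regulatory subunit of PI3 kinase, was 6.62-fold higher in early cells (limma adjusted p = 0.0052), Gab2, a docking protein of receptor kinases, 5.72-fold (0.00131) and Frs3, an adaptor of Trk and FGF receptors, 4.15-fold (0.0033). Without both replicate 3 arrays Pik3r1 did not pass (limma adjusted p = 0.0698). The 3 genes higher in late cells lay outside the 4 largest differences and were named after their values were seen. Grb10, an adaptor that binds receptor kinases, was 3.84-fold higher in late cells (limma adjusted p = 0.00253), Gab1, a docking protein related to Gab2, 3.24-fold (0.00322) and Zfp110, a zinc finger protein known to bind p75, 1.78-fold (0.017). The call of Zfp110 was lost without any filter (limma adjusted p = 0.0991) and when late replicate 1 (0.0657), 2 (0.0588) or 3 (0.0816) was left out.

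Of 8 tested enzymes that process secreted precursors, 1 was higher in late and 1 in early cells, with a list median of -0.35 on the log2 scale, beside 30.1% of all tested genes called in either direction. Pcsk6, a proprotein convertase, had 815, 689 and 641 units in late cells, against 128, 111 and 195 units in early cells, 5.07-fold higher in late cells (limma adjusted p = 0.00269). Cpe, a carboxypeptidase of neuropeptide and neurotrophin precursors, was 1.92-fold higher in early cells (limma adjusted p = 0.0138), and did not pass with late replicate 2 (0.0629) or 3 (0.0661) left out. Nor did Cpe pass without a filter on dim probe sets (limma adjusted p = 0.0806).

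Of 14 tested genes that respond to receptor kinase signalling and activity, 4 were higher in late and 1 in early cells, with a list median of 0.52 on the log2 scale, beside 13.9% and 16.2% of all tested genes. The genes described here are 3 of the 4 higher in late cells. Dusp5, a phosphatase that inactivates ERK, had 1544, 904 and 1035 units in late cells, against 293, 176 and 406 units in early cells, 4.10-fold higher in late cells (limma adjusted p = 0.0115). Dusp6, another ERK phosphatase, was 2.79-fold higher in late cells (limma adjusted p = 0.0106) and Spred2, an inhibitor of Ras to ERK signalling, 2.18-fold (0.00982). Without a filter on dim probe sets neither Dusp6 (limma adjusted p = 0.0528) nor Spred2 (0.0594) passed. Without both replicate 3 arrays Dusp5 (limma adjusted p = 0.0556), Dusp6 (0.0556) and Spred2 (0.0756) did not pass. Genes of this list also answer to other receptors, among them those of FGFs.

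**Figure D4:**
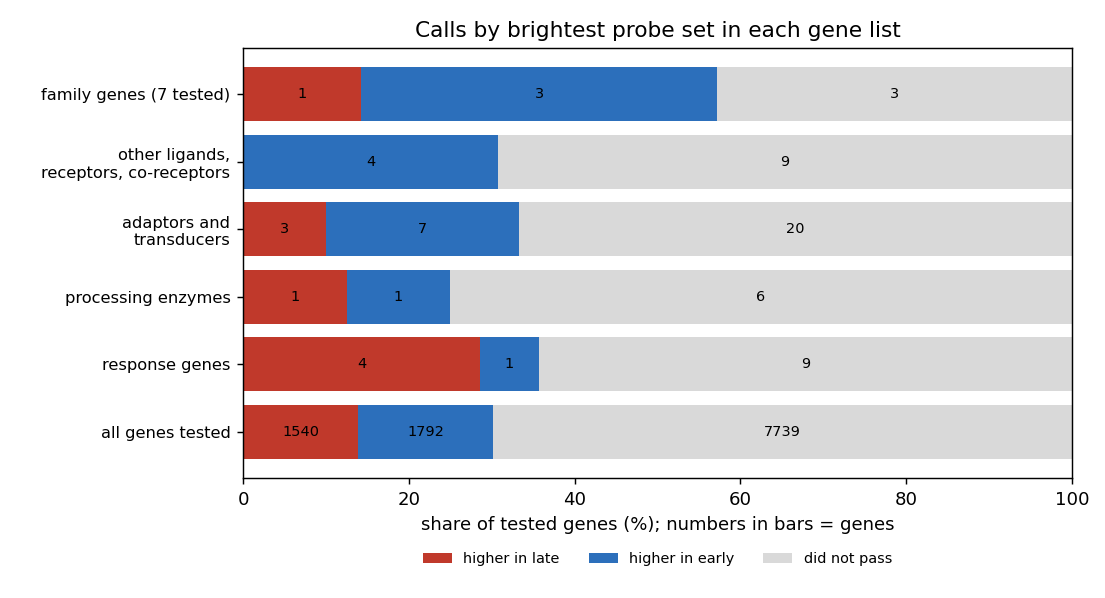
Share of tested genes in percent, by brightest probe set, that were higher in late cells (left), higher in early cells (middle) or did not pass, for the family and 4 lists of related genes and for all tested genes; numbers are genes. Genes higher in early cells numbered 4 of 13 among other ligands and receptors and 7 of 30 among adaptors, whereas 4 of 14 response genes were higher in late cells.

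Markers of other cell types were read beside these results, and their part in them was not tested. Over all tested genes, 13.9% were higher in late and 16.2% in early cells. Of markers of GABAergic neurons, 3 of 5 tested were higher in early cells, namely Calb1, Gad2 and Gad1, while Lhx1 had a difference of 1.04 log2 units that did not pass (limma adjusted p = 0.243). For Calb1 and Gad2 the early signals alone sufficed to enter the test, as 2 and 1 late arrays lay above the median. The call of Calb1 held without any 1 array. That of Gad2 was lost when late replicate 1 (limma adjusted p = 0.0667) or 3 (0.0668) was left out, and that of Gad1 for late replicate 1 (0.103), 2 (0.129) or 3 (0.152) and early replicate 1 (0.11) or 3 (0.11). The 8 markers with a probe set summed to 876 to 1254 units on late and 2281 to 3626 units on early arrays. Calb1 alone averaged 124 units in late and 1320 units in early cells. Of radial glia and astrocyte markers, 1 of 4 tested, Slc1a3, was higher in late and 2, Fabp7 and Aldh1l1, in early cells. Their sums were 4484 to 6871 units on late and 8919 to 9922 units on early arrays. Most of this was Fabp7, with means of 4638 units in late and 8432 units in early cells. Aldh1l1 entered the test through its early signals alone, and its call was lost with signals raised to the array median (limma adjusted p = 0.0826). Aqp4 and Gfap lay at or below the median on all 6. Of microglial markers, Csf1r was higher in early cells, 1 of 2 tested, with sums of 356 to 441 and 563 to 1289 units, and Aif1, Itgam and Fcer1g never exceeded the median. Of mesenchymal markers, Pdgfra was higher in late cells, 1 of 3 tested, with sums of 778 to 1119 and 516 to 1907 units, and Dcn, Lum and Twist1 never exceeded the median. The calls named for glial, microglial and mesenchymal markers were also lost with single arrays left out, among them Csf1r without late replicate 1 (limma adjusted p = 0.0947), 2 (0.0693) or 3 (0.079) or early replicate 1 (0.0658) and Pdgfra without late replicate 1 (0.0607) or 3 (0.051). None passed in limma, adjusted or at an unadjusted p below 0.05, among 3 noradrenergic and serotonergic, 3 neural crest, 4 endothelial and 1 blood marker. No marker of cranial motor neurons, a cell type known to use Ret and Gfra1, was bright enough to be tested, and 5 of 7, Chat and Slc18a3 among them, never exceeded the median. Its sums were 169 to 323 units on late and 294 to 516 units on early arrays.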

How the data were processed

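Per the submitters' processing notes the authors used MAS5, and the deposited intensities are linear signals of each probe set on each array. The MAS5 version and detection calls were not given in the sources used here. The mean signal of every array, computed without its lowest and highest 2%, was 500.0. A change in total RNA per cell can therefore not be read from these signals.

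Of 45101 probe sets, 34958 named 1 gene symbol in the platform annotation, 932 named several and 9211 named none. Log2 signals were fitted with limma 3.58.1 (lmFit and eBayes) in R 4.3.3, late minus early, two-sided, with Benjamini-Hochberg adjustment over 23491 probe sets and a threshold of 0.05. These lay above their array's median on at least 3 of the 6 arrays. Neither the median nor the tests included the 64 control probe sets. This definition of the median was chosen after results with the median over all probe sets were known, and those are given as an alternative added after seeing the data. The same probe sets were kept when an array was left out. A gene of the other lists was represented by its brightest probe set (highest mean of log2 signals). The script was tested on simulated data. Named outside the family were, for each of the 4 lists of related genes, up to 4 genes with the largest differences past the threshold. For each family gene that passed, the 2 genes nearest in profile were named. Cell type markers were read outside this rule. The 3 adaptors higher in late cells were named beside these. The values of 1 response gene that this rule names, the only one of its list higher in early cells, are not reported here. The family, lists and tests were chosen with earlier results of these data known. Settings varied were a block for the replicate number, other normalizations, offsets, filters and eBayes settings, signals raised to the array median, a stricter threshold, means over probe sets and left-out arrays.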

Additional observations from a re-analysis of the deposited data

How the results depend on the processing

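With the number of probe sets past the threshold at 6094 (2939 higher in late, 3155 in early), family probe sets at 12 and family genes at 4, leaving out 1 array gave 2937 to 5847, 1158 to 2986, 1779 to 2891, 6 to 10 and 3 to 4. Without any filter they were 2719, 1160, 1559, 5 and 2. Without late replicate 3 and early replicate 3 they were 1481, 651, 830, 3 and 2. At an adjusted p of 0.01, 2433, 984 and 1449 probe sets and 6 family probe sets passed. With the replicate number as a block, 3590, 1587 and 2003 passed and 9 family probe sets. Same-numbered arrays did not deviate together (r = -0.03, -0.07 and -0.01). These values give no sign that the numbers pair the samples, but 3 arrays per group cannot exclude it. The array median of the filter leaves out control probe sets; taken over all probe sets, the definition computed first, 6104 of 23471 passed (2946 higher in late, 3158 in early), with 12 family probe sets and 4 family genes as before. The causes were not tested. Signs turned in 5 results, none past the threshold: without both replicate 3 arrays Ntrk2 1446712_at gave -0.041 and Ret 1436359_at 0.19, and means over all probe sets of a gene gave -0.50 for Ntrk2, 0.083 for Ngfr and 0.31 for Ret. Over all settings that left out 1 array or both replicate 3 arrays, Ntrk2 1446712_at ran from -0.041 to 0.79 and Ret 1436359_at from -1.04 to 0.19. Quantile normalization, centring on medians and an offset changed no family call. MAS5 signals of dim probe sets vary strongly on the log scale, and Gdnf in early cells and Bdnf were dim.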
